A study of Mus musculus with 6 samples.

Results

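The genes described here encode the folding and proteolytic machinery of mitochondria: the chaperones Hspd1, Hspe1, Hspa9 and Trap1 and the proteases or protease subunits Lonp1, Clpp, Clpx, Afg3l2, Spg7 and Htra2. They were chosen by name, as the 10 gene symbols carried by probes that are not controls on the array. All 10 were found, on 19 of 56605 distinct probes, and as 10 of the 20778 genes that could be tested. LSK cells, the lineage-negative c-Kit-positive Sca1-positive fraction of bone marrow that holds haematopoietic stem cells and multipotent progenitors, had been sorted from C57BL/6 mice at P6 to P8 and their RNA hybridised to 1-colour Agilent arrays with 60-mer probes. There were 3 arrays from control mice (Atg5w/w;Vav-iCre+) and 3 from Atg5f/f;Vav mice, in which Cre driven by Vav removes the loxP-flanked part of Atg5, a gene needed to elongate autophagosomes, in haematopoietic cells from mid-gestation on. The controls carried the Cre transgene too, so both groups share it, and no sample had been given a drug. Whether 1 mouse or several gave the cells of a sample is in neither the labels nor the methods, so the p-values measure only the spread between these samples, which may be technical.

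Most mitochondrial proteins are made in the cytosol and enter the organelle unfolded. Inside, the matrix Hsp70 (Hspa9) pulls them in and begins to fold them, the chaperonin barrel (Hspd1) with its lid (Hspe1) completes the folding, and proteases of the matrix (Lonp1, ClpXP), the inner membrane (the m-AAA protease) and the intermembrane space (Htra2) remove what is damaged or surplus. When proteins misfold in mitochondria, transcription of several of these genes is known to increase, a programme called the mitochondrial unfolded protein response (UPRmt), for which Hspd1, Hspe1, Lonp1 and Clpp serve as the usual reporter genes. Autophagy is a route by which whole mitochondria are removed, and the comparison asks how this machinery stood in cells in which Atg5 had been deleted.

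The sequence between the starts of Hspd1 and Hspe1 is shown because the genes of the chaperonin lie head to head and the arrays read both of them. In the RefSeq promoter windows of build GRCm38.p6, which cover 250 bases before to 50 after each start, the interval between the Hspe1 start and the nearer Hspd1 start is chr1:55087933-55088147 and holds 215 bases. It is printed on the plus strand, 5′ to 3′, so that it runs from Hspd1 on the left into Hspe1 on the right, with the stretch that matches a heat shock element in capitals. RefSeq lists 2 starts for Hspd1, and the other one, at base 55088243, lies beyond the Hspe1 start.
Hspd1 to Hspe1: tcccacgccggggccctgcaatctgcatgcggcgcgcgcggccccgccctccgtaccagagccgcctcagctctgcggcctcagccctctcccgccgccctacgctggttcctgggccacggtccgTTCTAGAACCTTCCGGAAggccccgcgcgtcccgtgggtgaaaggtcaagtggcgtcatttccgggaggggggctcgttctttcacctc

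The capitals span 18 bases and hold 2 overlapping matches to a 3-unit heat shock element, searched as GAANNTTCNNGAA on both strands. The matched stretch ends 72 bases before the Hspe1 start and begins 127 bases from the nearer Hspd1 start, and the same letters were read from the windows of both genes. RefSeq windows were given for 7 of the 10 genes. Among those 7 only Hspd1 and Hspe1 held this motif, in the stretch they share, against 0.662% of 27025 genes with a window. Of 18 relatives that work in other compartments and had a window, 1 (Hsph1) held it. TGACGTCA, the cAMP response element, was found in Trap1 (2.03% of genes) and CACGTG, the E-box, in Lonp1 and at the farther start of Hspd1 (8.09% of genes). The E-box was also in Hsph1 and Lonp2 among those 18 relatives. TGATGCAA, the composite site of C/EBP and ATF factors, was in none of the 7 windows (1.03% of genes). The 4 motifs were picked after the windows had been seen, none of them contains another, a match describes letters and not a bound site, and no match says only that these letters are not in this window.

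The probes are 60 bases long, and 4 of them are shown here. They are the single probe of Trap1 and probes of Htra2 and Clpx other than the brightest of each gene. Each lies in exons of the mm9 build, on which the array was designed, and is printed in the sense of the transcript with no part marked. The first Htra2 probe starts at transcript base 1023 and covers chr6:83003033-83003350 on the minus strand, 318 bases of genome, so that its 60 bases come from either side of an intron. The second Htra2 probe starts at base 1295 and lies at chr6:83001737-83001796. The Trap1 probe, the single one for that gene, starts at base 1691 and spans chr16:4044692-4045495 on the minus strand, across an intron as well. The Clpx probe of base 1414 lies at chr9:65168664-65168723 on the plus strand.
Htra2 base 1023: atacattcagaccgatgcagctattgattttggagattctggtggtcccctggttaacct
Htra2 base 1295: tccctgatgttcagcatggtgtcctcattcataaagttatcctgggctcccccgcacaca
Trap1 base 1691: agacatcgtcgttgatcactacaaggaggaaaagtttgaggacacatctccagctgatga
Clpx base 1414: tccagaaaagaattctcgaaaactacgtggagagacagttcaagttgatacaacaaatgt

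All values below are log2 intensity minus the 75th percentile of the same array, so that a value compares 1 probe between arrays and never 1 probe with another. The 75th percentile of intensity lay between 620.3 and 881.4 on the 6 arrays. Each control array had more probes well above background (58.15%, 57.57% and 58.14%) than any Atg5f/f;Vav array (54.78%, 53.91% and 51.58%). Of 32074 probes tested with limma, 5540 were higher and 5484 lower in Atg5f/f;Vav cells at an adjusted p under 0.05, and this split moved to 3371 and 10088 when arrays were scaled on detected probes and to 4412 and 483 when they were scaled on spike-in RNA. All arrays lay on 1 slide, with the controls in the first row and the Atg5f/f;Vav arrays in the second, so row and genotype cannot be told apart. The Atg5 probe, near the 3′ end at transcript base 2251 and outside the deleted part, does not check the deletion, and read 1.10, 0.93 and 1.06 in control and 1.46, 1.51 and 1.74 in Atg5f/f;Vav cells. Among markers of the sorted cells, Kit and Ly6a (Sca1) were well above background on all arrays. In control replicates 2 and 3 the stromal genes Col1a1, Col1a2 and Sparc stood at 2.90 to 3.47, and on the other 4 arrays at -5.49 to 0.64.

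The mitochondrial chaperones and proteases were higher in Atg5f/f;Vav cells as a body. All 10 genes, each read by its brightest probe, had a positive log2 fold change, from 0.40 for Clpx to 1.04 for Hspd1, with a median of 0.82 against -0.03 over all genes tested. At an adjusted p under 0.05 (limma, Benjamini-Hochberg over all probes) 9 of the 10 were higher and none was lower, where 18.7% of all genes were higher and 15.3% lower. The exception was Clpx, at an adjusted p of 0.0538. In all 10 the lowest Atg5f/f;Vav array stood above the highest control array, which held in that direction for 29.6% of all genes. The methods' t-test gave an unadjusted p under 0.05 for all 10, against 25.0% of all genes in that direction, and after adjustment it called none of the 10 and no probe. The limma calls rest on control replicates 1 and 2: without either one, none of the 10 genes passed, with adjusted p from 0.0682 to 0.175 and from 0.0713 to 0.155, while the median change was 0.77 and 0.74 and all probes called fell to 330 and 251. Without any other single array 7 to 9 of the 10 passed.

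**Figure D1:**
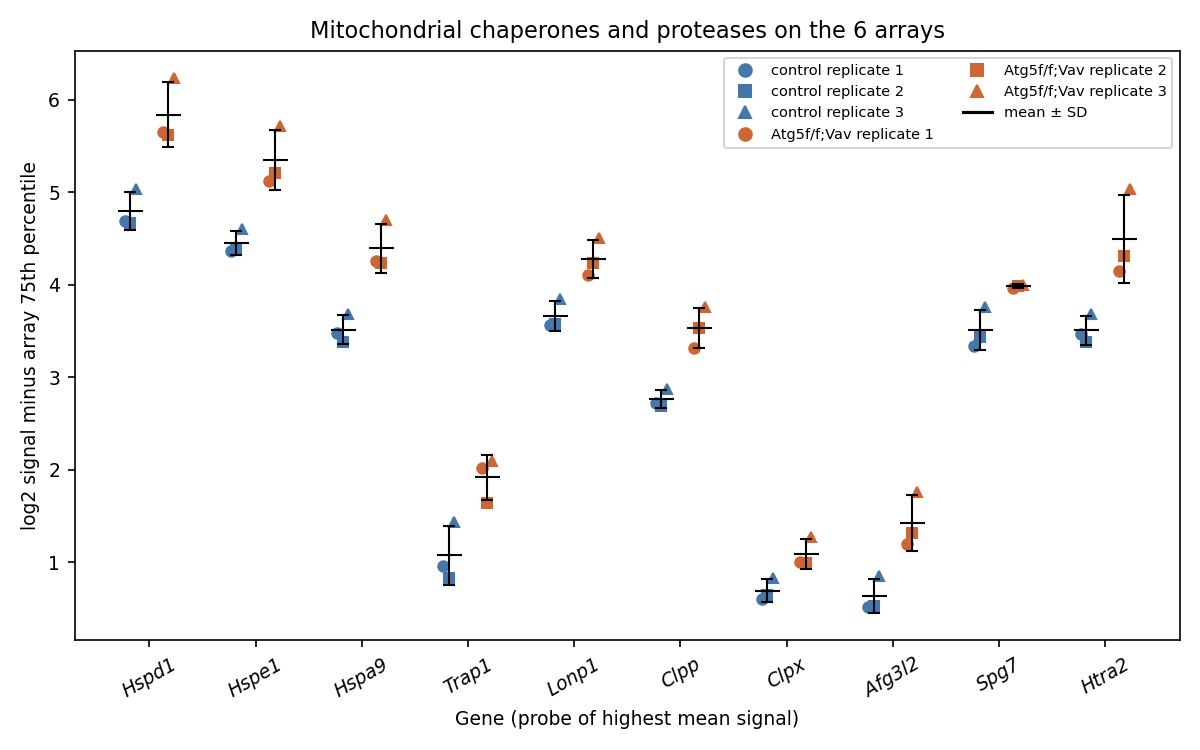
Log2 signal minus the array's 75th percentile for each of the 10 genes, read by its brightest probe, on the 3 control arrays (blue) and the 3 Atg5f/f;Vav arrays (orange), with the mean and SD as black bars. Within every gene the orange points lie above the blue ones, and the triangles, replicate 3, are the highest of their group in all 10 genes.

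Hspd1, the subunit of the folding barrel, had the largest rise of the 10. Its brightest probe, at transcript base 2121, read 4.68, 4.67 and 5.03 in control replicates 1 to 3 and 5.65, 5.62 and 6.24 in Atg5f/f;Vav replicates 1 to 3. The groups did not overlap, and replicate 3 was the highest array in each. The log2 fold change was 1.04 ± 0.20 (SE, n = 3 and 3), a 2.06-fold difference with an adjusted p of 0.0168 (limma), which placed Hspd1 at percentile 97.3 of all genes ordered by rise. A second Hspd1 probe at base 1693, which crosses an intron, changed by 1.15 ± 0.21 with an adjusted p of 0.0159.

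Hspe1, which closes the barrel as its lid, moved almost as far. Its brightest probe, at base 632, read 4.37, 4.39 and 4.60 in control and 5.12, 5.21 and 5.72 in Atg5f/f;Vav cells. The lowest Atg5f/f;Vav array stood 0.52 above the highest control array, and the log2 fold change was 0.90 ± 0.18 with an adjusted p of 0.0173 (limma). The other Hspe1 probes, at bases 286 and 493, changed by 1.05 and 0.96, so that all 3 probes along the transcript rose by a like amount.

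Barrel and lid thus rose together, and their ratio was examined on each array. The Hspd1 reading minus the Hspe1 reading was 0.32, 0.28 and 0.43 in control and 0.53, 0.41 and 0.52 in Atg5f/f;Vav cells. The groups overlapped, and the difference between them was 0.15 with p = 0.2 (exact permutation test, two-sided). With 3 arrays against 3 that test cannot go below 0.1, so no shift in the ratio of barrel to lid could be called. With all probes of each gene averaged the shift was 0.13 and p = 0.1 by the same exact test.

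Hspa9, the Hsp70 of the matrix (mortalin) and the motor of protein import, was also higher. Its brightest probe, at base 2377, gave 3.48, 3.38 and 3.69 in control and 4.25, 4.23 and 4.70 in Atg5f/f;Vav cells, a log2 fold change of 0.88 ± 0.17 with an adjusted p of 0.0166 (limma). The groups stood 0.55 apart at their nearest arrays. The probe at base 1699, across an intron, rose by 0.56 ± 0.17 with an adjusted p of 0.0422, so both probes passed.

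Trap1, the Hsp90 of mitochondria, was read by the single probe printed above. It gave 0.95, 0.83 and 1.43 in control and 2.01, 1.64 and 2.10 in Atg5f/f;Vav cells. The controls spread over 0.60, the widest control range of the 10 genes, and the gap to the lowest Atg5f/f;Vav array was 0.21. The log2 fold change was 0.84 ± 0.20 with an adjusted p of 0.0231 (limma), or 1.80-fold.

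Among the proteases of the matrix, Lonp1 and Clpp rose and Clpx did not pass the test. Lonp1, the Lon protease that removes oxidised and misfolded matrix proteins, read 3.57, 3.58 and 3.85 in control and 4.10, 4.24 and 4.50 in Atg5f/f;Vav cells. Its single probe thus changed by 0.62 ± 0.15 with an adjusted p of 0.0238 (limma), and the groups were 0.26 apart. Clpp, the peptidase chamber of ClpXP, read 2.72, 2.69 and 2.87 in control and 3.31, 3.53 and 3.75 in Atg5f/f;Vav cells, a change of 0.77 ± 0.14 with an adjusted p of 0.0165. Its controls lay within 0.18 of each other, the tightest control group of the 10.

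Clpx, the ring that unfolds substrates and feeds them to Clpp, had the smallest change. Its brighter probe, at base 2223, read 0.60, 0.64 and 0.83 in control and 1.002, 0.987 and 1.275 in Atg5f/f;Vav cells. The arrays of the groups did not overlap, but the log2 fold change of 0.40 ± 0.13 had an adjusted p of 0.0538 (limma). Over the alternative settings that adjusted p ran from 0.0348 to 0.211, and it was under 0.05 in 5 of 19. The probe at base 1414, printed above, read -1.84, -1.64 and -1.90 in control and -1.58, -1.66 and -1.53 in Atg5f/f;Vav cells, where Atg5f/f;Vav replicate 2 fell below control replicate 2, and its change of 0.20 had an adjusted p of 0.211.

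The 2 parts of ClpXP were therefore set against each other within each array. Clpp minus Clpx was 2.12, 2.05 and 2.04 in control and 2.31, 2.55 and 2.48 in Atg5f/f;Vav cells. The groups did not overlap, and the reading of the peptidase rose over that of its unfoldase by 0.38 on the log2 scale, with p = 0.1, the smallest the exact permutation test allows, and 0.225 after adjustment over 9 pairs of genes. With quantile normalisation the shift was 0.18, also without overlap.

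The m-AAA protease of the inner membrane, which trims and destroys membrane proteins and matures a ribosomal protein, is built from Afg3l2 alone or with Spg7 (paraplegin). The brighter Afg3l2 probe, at base 2997, read 0.52, 0.53 and 0.85 in control and 1.20, 1.32 and 1.76 in Atg5f/f;Vav cells, a change of 0.79 ± 0.18 with an adjusted p of 0.0215 (limma). The groups stood 0.35 apart. The probe at base 585 disagreed: it read -2.13, -1.78 and -2.08 in control and -2.11, -1.91 and -1.14 in Atg5f/f;Vav cells, the groups overlapped, and its change of 0.28 ± 0.26 had an adjusted p of 0.421.

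For Spg7 the Atg5f/f;Vav arrays were the closest together of all 10 genes. The probe at base 2482 read 3.34, 3.44 and 3.76 in control and 3.966, 3.988 and 4.002 in Atg5f/f;Vav cells, a change of 0.47 ± 0.14 with an adjusted p of 0.0367 (limma). The probe at base 2269 changed by 0.39 and did not pass, at an adjusted p of 0.0731, though its groups did not overlap either. The Spg7 call was the least stable of the 9, and failed under 11 of 19 alternative settings. Afg3l2 minus Spg7 was -2.82, -2.91 and -2.91 in control and -2.77, -2.67 and -2.24 in Atg5f/f;Vav cells, a shift of 0.32 toward Afg3l2 with non-overlapping groups and p = 0.1 by the exact permutation test. That shift depends on the probes and on 1 array: it was 0.11 with p = 0.8 (exact permutation test) when all probes of each gene were averaged, 0.16 without Atg5f/f;Vav replicate 3, and 0.55 with quantile normalisation.

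Htra2 (Omi), the serine protease of the intermembrane space, which binds inhibitors of apoptosis once it is released to the cytosol, held the largest change of any of the 19 probes. Its brightest probe, at base 1563, read 3.46, 3.38 and 3.68 in control and 4.15, 4.31 and 5.04 in Atg5f/f;Vav cells. The Atg5f/f;Vav arrays spread over 0.90, the widest range of the 10 genes, because replicate 3 stood well above replicates 1 and 2. The log2 fold change was 0.99 ± 0.24 with an adjusted p of 0.0243 (limma). The 2 probes printed above rose further: the one at base 1023 read 0.13, -0.08 and 0.45 in control and 1.25, 1.32 and 1.88 in Atg5f/f;Vav cells, a change of 1.32 ± 0.21 with an adjusted p of 0.0149, and the one at base 1295 changed by 1.17 ± 0.22.

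**Figure D2:**
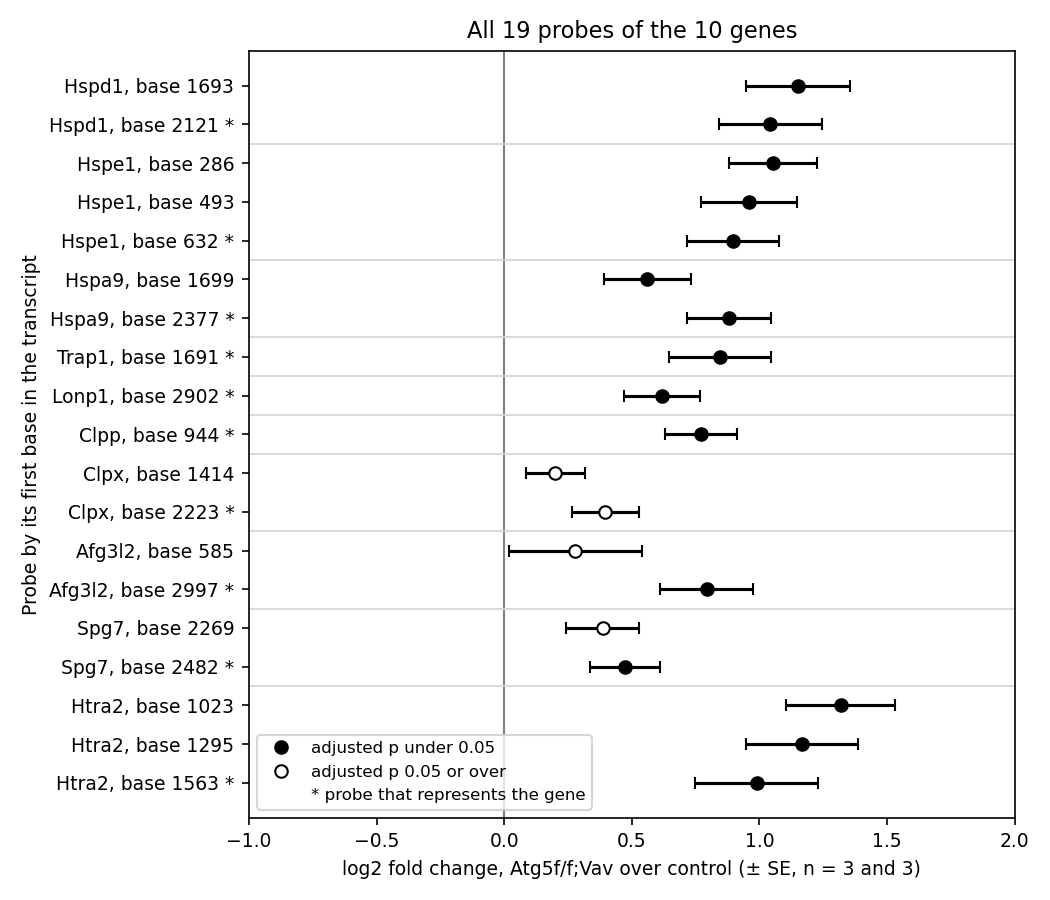
Log2 fold change of Atg5f/f;Vav over control, with its SE as bars, for every probe of the 10 genes, named by the transcript base at which the probe starts. Filled points have an adjusted p under 0.05: 15 of the 19 probes are filled, all lie to the right of 0, and the open ones belong to Clpx, Afg3l2 and Spg7.

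Over all 19 probes, each well above background on all 6 arrays, 15 were higher at an adjusted p under 0.05, where 17.3% of all probes tested were. The changes ran from 0.20 to 1.32, and 17 of the 19 probes had groups that did not overlap, with Atg5f/f;Vav higher. That share was not computed over all probes, and over all genes, each read by its brightest probe, it was 29.6%. The 7 genes with several probes each had every probe positive, while 3 genes (Trap1, Lonp1 and Clpp) rest on 1 probe. Replicate 3 was the highest array of its group for all 10 genes in both groups, an order that 23.84% of all genes shared, and leaving it out moved the size of the change. Without Atg5f/f;Vav replicate 3 the median change of the 10 genes was 0.69, and without control replicate 3 it was 0.93.

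The size of the rise moved with the scaling of the arrays. All 10 genes were positive under the 75th percentile over non-control spots and under normexp background correction. They were also positive under the 75th percentile over detected probes, quantile normalisation and scaling on spike-in RNA. Scaling on detected probes moved the median of all probes to -0.27 and that of the 10 genes to 0.61, and scaling on spike-in probes moved them to 0.49 and 1.37. Quantile normalisation gave the smallest median, 0.54, and left 6 of the 10 genes past the threshold: Lonp1 (0.29, adjusted p = 0.0940), Spg7 (0.15, adjusted p = 0.345), Htra2 (0.66, adjusted p = 0.0540) and Clpx did not pass.

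**Figure D3:**
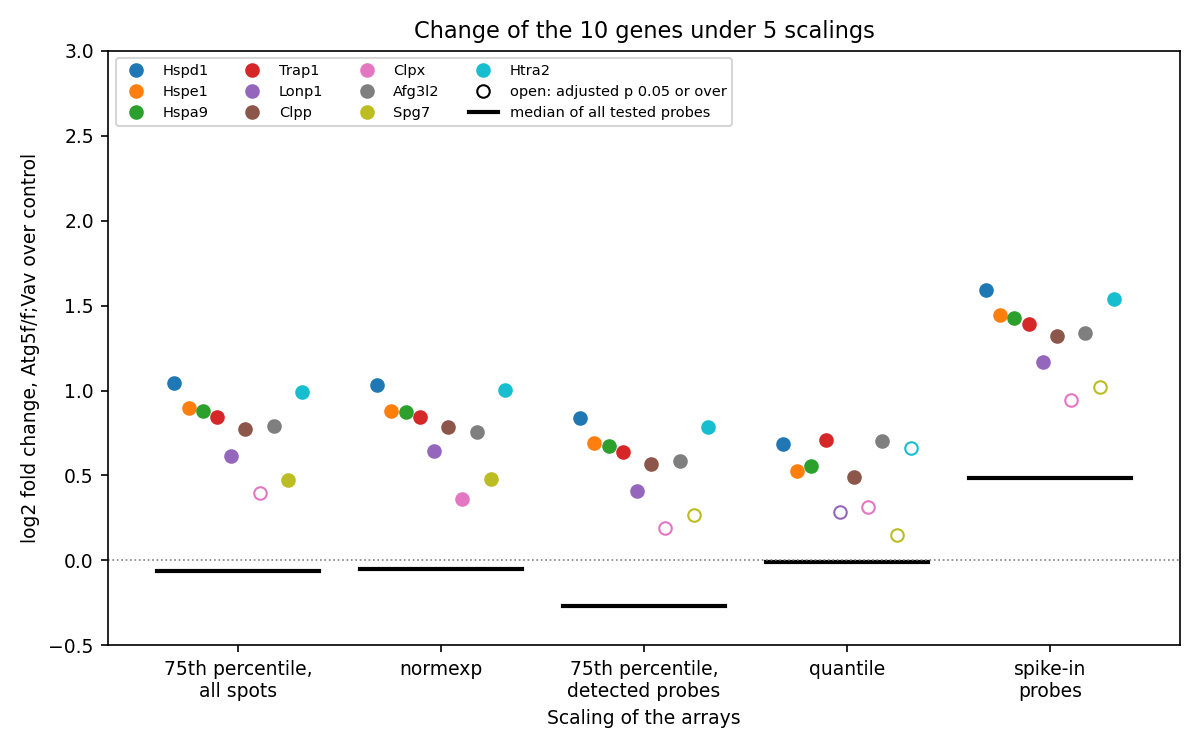
Log2 fold change of the 10 genes under 5 ways of scaling the arrays, with open points for an adjusted p of 0.05 or over and a black line for the median of all tested probes. Every point lies above the black line of its own scaling, and the line itself runs from -0.27 for detected probes to 0.49 for spike-in probes. In the first label, all spots means all spots except control spots.

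Relatives of these genes that work outside the mitochondrion were compared next, to see which compartments moved. Of 24 counterparts in the cytosol, endoplasmic reticulum, peroxisome and secretory pathway, 20 were measured. Of these 17 were higher and 1 was lower, with a median of 0.65, where 18.7% of all genes were higher and 15.3% lower. The largest rises were those of Cct3, a subunit of the cytosolic chaperonin (0.99), Hsph1, a cytosolic nucleotide exchange factor (0.98), and Hspa4 of the same family (0.93), and the gene that fell was Htra3, a secreted protease (-1.42, adjusted p = 0.0291). The rise was thus also seen in chaperones of other compartments. Lonp2, the Lon protease of the peroxisome, read 2.95, 2.75 and 2.86 in control and 2.86, 2.70 and 2.59 in Atg5f/f;Vav cells, with an adjusted p of 0.404.

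Differences within an array were used to compare the mitochondrial member with its relative. By the exact permutation test no pair had an adjusted p below 0.225. Lonp1 minus Lonp2 was 0.62, 0.83 and 0.99 in control and 1.24, 1.53 and 1.91 in Atg5f/f;Vav cells, a shift of 0.75 with groups that did not overlap. Hspa9 minus Hspa8, the constitutive Hsp70 of the cytosol, was -2.70, -2.60 and -2.69 in control and -2.42, -2.41 and -2.38 in Atg5f/f;Vav cells, a shift of 0.26, also without overlap. That shift turned to -0.09 when all probes of each gene were averaged, so its direction rests on the choice of probe. Against Hspa5, the Hsp70 of the endoplasmic reticulum (BiP), Hspa9 shifted by 0.09 and the groups overlapped.

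The remaining differences did not separate the groups when each gene was read by its brightest probe. Trap1 shifted by 0.50 against Hsp90ab1, the abundant Hsp90 of the cytosol, and by 0.34 against Hsp90b1 of the endoplasmic reticulum, each with overlap and p = 0.2 by the exact permutation test. Hspd1 shifted by 0.11 against Tcp1, a subunit of the cytosolic chaperonin, with p = 0.4 by the same exact test. With all probes averaged this last shift was 0.73 with an exact p of 0.1, and without single arrays it ran from 0.03 to 0.20, so its size rests on the probe and the array. With quantile normalisation the shift of Trap1 against Hsp90b1 was 0.56 with an exact p of 0.1, and that against Hsp90ab1 was 0.49, also at 0.1. Of 9 pairs 4 had groups without overlap, and the exact p-values, 0.1 at best, became 0.225 to 0.4 after adjustment.

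**Figure D4:**
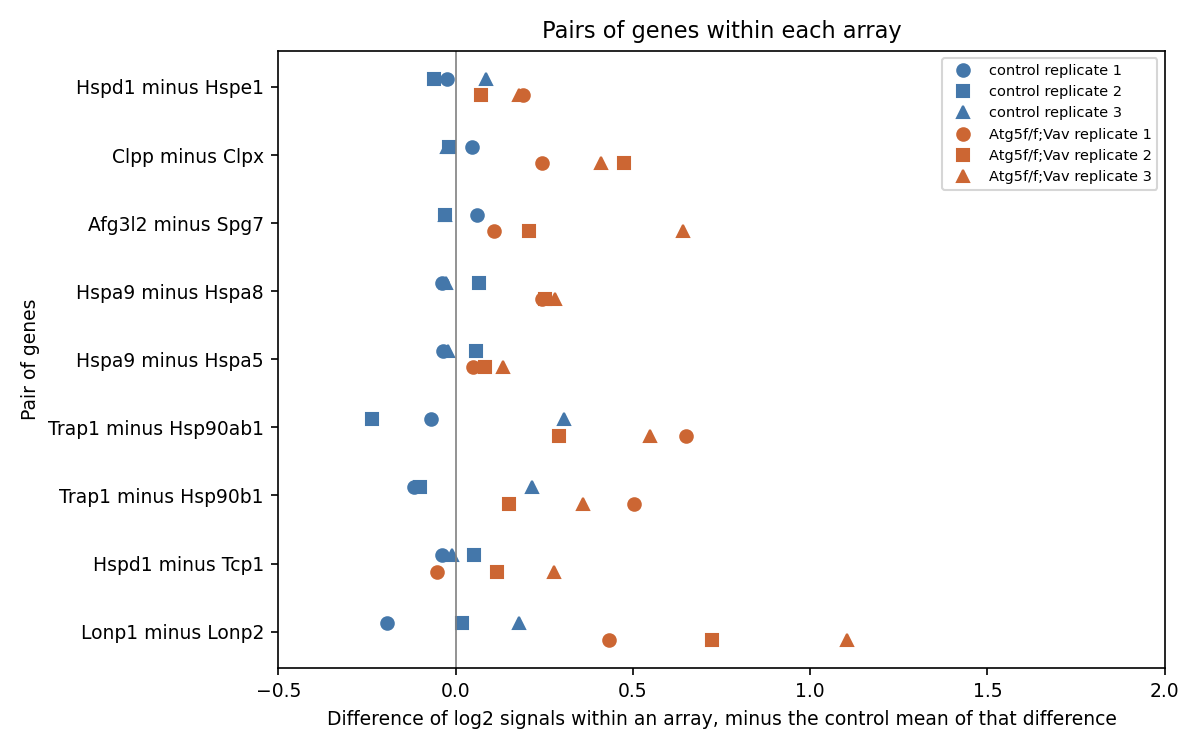
Difference of the log2 signals of 2 genes on the same array, minus the mean of that difference over the controls, for 9 pairs and each of the 3 control (blue) and 3 Atg5f/f;Vav (orange) arrays. The orange points clear the blue ones for Clpp minus Clpx, Afg3l2 minus Spg7, Hspa9 minus Hspa8 and Lonp1 minus Lonp2, with the widest shift (0.75) in the last.

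Most of the other mitochondrial chaperones rose, as did some of the other proteases, where 18.7% of all genes were higher and 15.3% lower. Of 16 further chaperones and cochaperones, all measured, 14 were higher and none lower, with a median of 0.63. The largest rises were those of the prohibitins Phb (1.22, adjusted p = 0.0138) and Phb2 (1.01), which form a scaffold around the m-AAA protease, and of Grpel1 (0.86), the nucleotide exchange factor of Hspa9. Of 16 further proteases and peptidases 8 were higher and none lower, with a median of 0.42, led by Pitrm1 (0.89), which degrades cleaved targeting peptides, Mipep (0.85), which trims imported proteins, and Afg3l1 (0.83), another subunit of the m-AAA protease. Whether these lists differ was not tested. With quantile normalisation 8 of these chaperones and 7 of the counterparts were higher, with medians of 0.36 and 0.33, and no counterpart was lower. With no filter on dim probes 2 of the 16 proteases were called, and without control replicate 1 or without control replicate 2 no gene of these lists was.

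**Figure D5:**
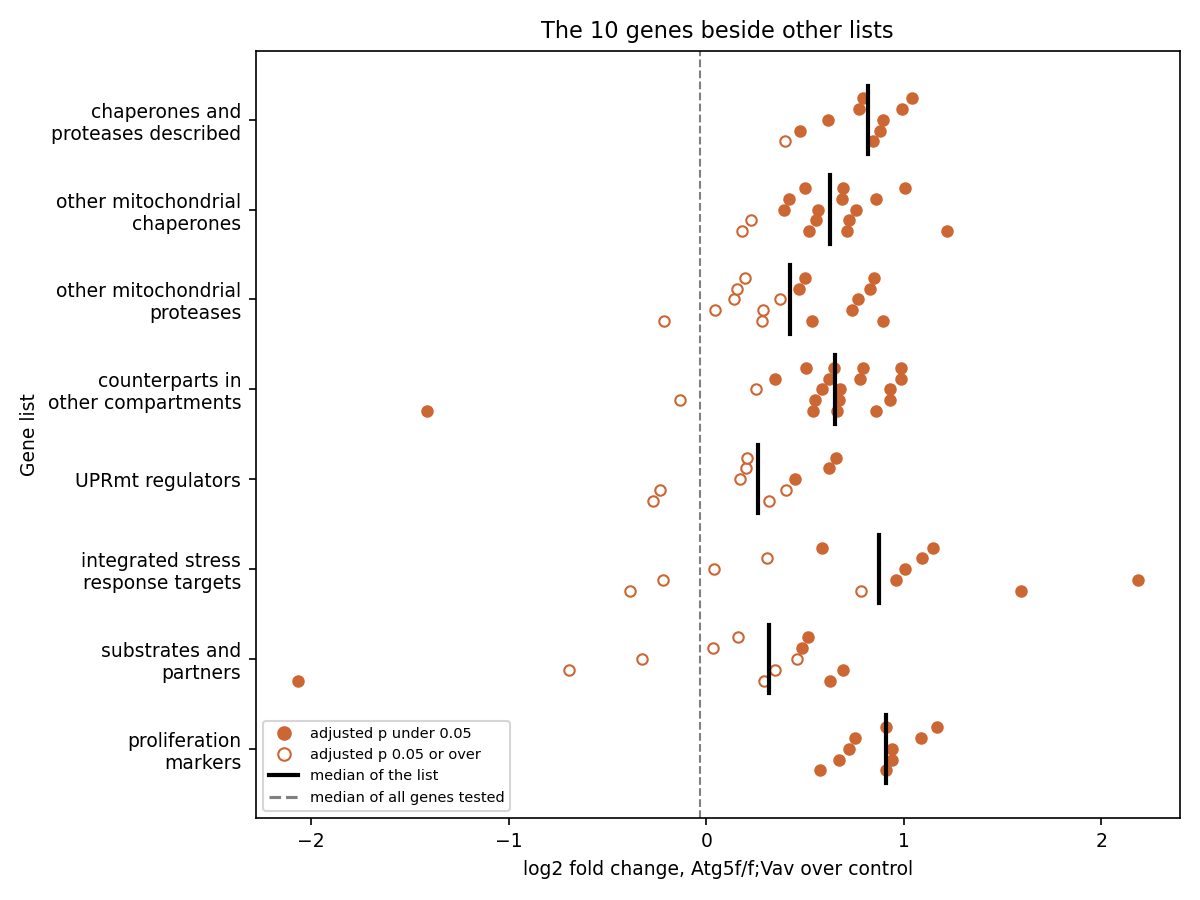
Log2 fold change of each gene of 8 lists, filled where the adjusted p is under 0.05, with the median of each list as a black bar and the median of all genes tested (-0.03) as a dashed line. The bar of the 10 genes described stands at 0.82, that of the other mitochondrial chaperones at 0.63, that of the counterparts at 0.65 and that of the proliferation markers at 0.91.

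Most transcription factors and sensors tied to the mitochondrial unfolded protein response did not pass the threshold. In 5 of the 10 the groups did not overlap, with Atg5f/f;Vav higher, which held for 29.6% of all genes. Of 10 regulators 3 were higher and none lower, where 18.7% of all genes were higher, with a median of 0.26. That median was 0.11 without Atg5f/f;Vav replicate 3, 0.06 with scaling on detected probes and 0.07 with quantile normalisation, under which 1 regulator was called, and without control replicate 1 or 2 none was. Atf4, the central factor of the integrated stress response, read 5.18, 5.21 and 5.29 in control and 5.69, 5.79 and 6.17 in Atg5f/f;Vav cells, a change of 0.66 with an adjusted p of 0.0209 (limma). Atf5, the mammalian counterpart of the worm factor that drives the programme, read 2.09, 1.95 and 2.01 in control and 2.18, 1.97 and 3.11 in Atg5f/f;Vav cells, so that 1 array stood apart and the change of 0.40 had an adjusted p of 0.293. Ddit3 (CHOP) read 0.12, -0.60 and -0.63 in control and -1.25, -0.62 and 0.06 in Atg5f/f;Vav cells, with overlap and an adjusted p of 0.625. The others that rose were Cebpb (0.62), a partner of CHOP, and Ubl5 (0.45), a ubiquitin-like protein of the worm programme.

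Targets of the integrated stress response split. Of 13 listed genes 12 were measured. At the threshold 7 were higher and none lower, with a median of 0.87, where 18.7% of all genes were higher and 15.3% lower. The 7 include a gene that was well above background on only 4 of the 6 arrays. With a filter on all 6 arrays, 6 of 11 were higher and none lower, with a median of 0.785. Other scalings added falls: 7 were higher and 2 lower with scaling on detected probes, and 6 were higher and 1 lower with quantile normalisation, while without control replicate 1 or 2 none was called. Asns, which makes asparagine, read 2.08, 2.02 and 2.08 in control and 3.40, 4.06 and 5.26 in Atg5f/f;Vav cells, a change of 2.18 ± 0.43 with an adjusted p of 0.0168 (limma). Mthfd2 of mitochondrial folate metabolism (1.59) and Psat1 of serine synthesis (1.15) followed. The genes of this list that passed belong to amino acid and one-carbon synthesis, whereas Trib3, Chac1, Sesn2, Ddit4 and Gdf15 did not pass.

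Of 12 known substrates and partners of the proteases 4 were higher and 1 was lower, with a median of 0.32. Over all genes 18.7% were higher and 15.3% lower. The balance turned with the scaling, to 2 higher and 3 lower (median 0.11) on detected probes and to 1 higher and 3 lower (median 0.09) with quantile normalisation, and without control replicate 1 or 2 none was called. The largest rises under the 75th percentile over non-control spots were those of Sdhb and Mrpl32. Sdhb (0.69) is a subunit of succinate dehydrogenase, and Mrpl32 (0.63) is the ribosomal protein that the m-AAA protease matures. Alas2, the erythroid enzyme that begins haem synthesis and is handled by ClpX, fell from 1.66, 1.48 and 0.13 to -1.31, -0.69 and -0.93, a change of -2.07 ± 0.40 with an adjusted p of 0.0168 (limma). Alas2 is also counted among the erythroid markers below, of which 4 were higher and 3 lower.

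Markers of dividing cells and of other cell types moved on the same arrays, and in bulk samples fewer cells of a type and less RNA per cell cannot be told apart. Beside the counts below, 18.7% of all genes were higher and 15.3% lower. All 10 proliferation markers were higher, with an array median of 2.56 to 3.12 in control and 3.65 to 4.17 in Atg5f/f;Vav cells. In array median they were highest on control replicate 3 among the controls, as the 10 genes described were. That array was the highest control for 43% of all genes. Of 10 erythroid markers 4 were higher, namely Car1, Epor, Klf1 and Tfrc, and 3 were lower (Alas2, Hba-a1 and Hbb-bt). Their log2 fold changes ran from -2.26 to 3.80 with a median of 0.09, and 5 of the 10 were positive. Of 9 markers of neutrophils and myeloid progenitors 3 were higher and 5 lower (array medians 2.60 to 3.60 in control and 2.02 to 3.08 in Atg5f/f;Vav cells). Of 5 stromal markers 3 were lower and none higher (-0.59 to 3.23 and -2.10 to -1.60). Of 8 markers of LSK cells 1 was higher (Ly6a) and 3 were lower (Hlf, Mecom and Ptprc), with array medians of 3.56 to 3.60 and 3.17 to 3.43. Of 5 macrophage and 4 T and NK cell markers measured none was called, of 6 B cell markers 1 was higher, and of 5 megakaryocyte markers 1 was higher and 2 were lower. The part of these shifts in the rise of the mitochondrial chaperones and proteases was not tested.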

How the data were processed

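RNA of sorted LSK cells was measured on 6 arrays, 3 per group, grouped by the genotype in the labels. Per the file headers, each scanner file gives an intensity for every spot, which Agilent Feature Extraction 12.0.3.1 had corrected for background and spatial trend but not scaled to other arrays. The authors also deposited a table of signal, which equalled that intensity over a constant of each array to within 0.000267% and served as an alternative. The 75th percentile of an array, control spots excluded, was subtracted from its log2 intensities. Spots with an outlier flag (64 to 81 on an array) were dropped and none was saturated. The test, by lmFit and eBayes of limma 3.58.1 (R 4.3.3, two-sided), was run on the 32074 probes that at least 3 of the 6 arrays measured well above background, with Benjamini-Hochberg adjustment over them, a threshold of 0.05 and only these 2 groups in the fit. A gene was read by its tested probe of highest mean signal. Within-array differences were compared by exact permutation tests. The procedure was tested on simulated data. The simulated noise was independent between probes, so that test does not check the calls made here.

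The genes named are all 10 chaperones and proteases with every probe, the genes paired with them, of each other list at most the 3 largest called rises and falls, Atf4, Atf5 and Ddit3 whatever their values, and Atg5, apart from an item that is not reported here. Marker genes, and genes of the stress response list that did not pass, were named after their values were seen. The members and lists were chosen with earlier results of these data known. Some listed genes (Atp23, Maip1 and Dele1) were matched through older symbols. Alternatives were other scalings and background corrections, filters, a variance trend, the methods' t-test, a replicate block, other probes per gene and leaving out each array. Arrays give no count of reads, so precision is set by how many there are. Sequences are those of RefSeq and of the array's probes.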

Additional observations from a re-analysis of the deposited data

How the results depend on the processing

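The 10 chaperones and proteases stayed positive under every alternative run. The number of them past the threshold, 9 of 10, was 10 with normexp background correction, with the deposited values, with a filter on all 6 arrays and with an intensity trend in eBayes, and 8 with the detected-probe percentile, with spike-in scaling and with the mean of all probes. It was 7 with the probe nearest the 5′ end, chosen after seeing the data, 6 with quantile normalisation and 4 with no filter on dim probes, where more probes enter the adjustment. The methods' t-test after adjustment gave 0, with all 10 at an unadjusted p under 0.05, and leaving out 1 array gave 0 to 9. Their median change of 0.82 became 0.54 with quantile normalisation, 1.37 with spike-in scaling and 0.69 to 0.93 without 1 array. Of all probes, 11024 were called, 4895 with spike-in scaling, 4538 with no filter, 0 by the methods' t-test (13541 at an unadjusted p under 0.05) and 251 to 10304 without 1 array. Of 86 genes in the other 6 lists 55 were called, 33 with quantile normalisation, 28 with no filter, 0 by the methods' t-test (60 unadjusted) and 0 to 55 without 1 array. Of the 9 pairs 4 did not overlap, 7 with quantile normalisation and 4 to 7 without 1 array, and Hspa9 minus Hspa8 turned to -0.093 with the mean of all probes. The cause of these changes was not tested otherwise. The groups share replicate numbers, and the deviations of same-numbered arrays correlated at -0.065, 0.189 and 0.111. Arrays of unlike number correlated at -0.301 to 0.132. With 3 arrays per group these values cannot decide whether the numbers pair the samples. A fit with the number as a replicate block called 10 of the 10 genes, 10173 probes and 55 genes of the other lists, and left the median at 0.82. The signal of the dimmer probes of Clpx and Afg3l2 limits what can be read from them. The same limit holds for other dim probes among the genes named, such as that of Mipep (control mean -1.46).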
